A study of Homo sapiens with 6 samples.

Results

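Ribosome biogenesis and MYC target genes were followed across 6 bead arrays of SKOV-3, a line of human ovarian carcinoma cells long kept in culture. The list names 36 genes: MYC, its partner MAX, RNA polymerase I subunits and the factor UBTF, nucleolar factors of rRNA processing and subunit assembly, and 3 metabolic genes known as MYC targets. Members were taken as all probes with a single matching gene symbol, which gave 55 probes of 33 genes among the 20043 named genes of the array. GNL3, WDR43 and EBNA1BP2 had no such probe and were not analysed here. The single NPM1 probe was not detected on any array (detection p from 0.149 to 0.909) and was left out, so 32 members and 49 of their probes were tested. Each of these 32 was detected on all 6 arrays at a detection p under 0.05.

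The 3 siHBO1 arrays carry RNA of cells transfected with siRNA against HBO1, and the 3 siCtrl arrays carry RNA of cells given a scramble siRNA. All were collected 48 h after transfection, and both groups therefore share the transfection itself. HBO1 is the protein of KAT7, a histone acetyltransferase of the MYST family, and the series asks what it does in these cells. The labels do not say whether replicates were separate cultures, so p-values measure the spread between these arrays, which may be technical.

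Ribosomes are assembled in the nucleolus, where RNA polymerase I transcribes the large rRNA precursor. The precursor is modified by small nucleolar ribonucleoproteins (snoRNPs), cut, and folded with ribosomal proteins into a small and a large subunit. MYC pairs with MAX on DNA motifs called E-boxes and is known to raise transcription of many nucleolar, polyamine and nucleotide synthesis genes, so these genes are often read as an index of growth in cancer cells.

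Mean signal was 643, 650 and 744 on siHBO1 1 to 3 and 713, 730 and 674 on siCtrl 1 to 3, with 42.2% to 44.3% of 47314 probes detected per array. Log2 values of the 16692 tested rows (11917 named genes and 4775 unnamed probes) correlated at 0.977 to 0.994 across rows between arrays of the same group, and no pair of arrays held identical values. The line's own markers KRT8, KRT18, ERBB2 and PAX8 were detected on all 6 arrays, and of the 13 markers listed 11 passed the filter, CDH1 and MUC16 not. The leukocyte markers PTPRC, CD3E and CD74 and the endothelial markers PECAM1, VWF, CDH5 and KDR were detected on none, while the leukocyte-listed CD14 and CD68 were detected on all 6, ITGAM on 4 and CD52 on 3. KAT7 had log2 values of 4.77, 5.22 and 5.45 on siHBO1 1 to 3, all below the 5.93, 6.49 and 6.45 on siCtrl 1 to 3. The change was -1.14 log2 (SE 0.25), or 2.21-fold lower, with the probe detected on 1 of 3 siHBO1 arrays. The exact two-sided permutation test gave p = 0.1, the smallest that 3 against 3 allow. Limma gave an unadjusted p of 0.0013 and an adjusted p of 0.999.

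Promoters are shown here for the members whose array-to-array pattern was most and least like that of the other members, a likeness described further on, and for the 3 most alike members that hold an E-box. They span 250 bases before to 50 bases after each gene's start in the RefSeq promoter table (GRCh38.p14). Capitals mark the E-box CACGTG and the ETS-type letters CCGGAAG, each searched on both strands. These motifs cannot overlap each other, and an E-box reads the same on both strands. NOP16 (chr5:176388549-176388848, minus strand), DDX21 (chr10:68955920-68956219, plus strand) and NIP7 (chr16:69339522-69339821, plus strand) were the most alike.
NOP16: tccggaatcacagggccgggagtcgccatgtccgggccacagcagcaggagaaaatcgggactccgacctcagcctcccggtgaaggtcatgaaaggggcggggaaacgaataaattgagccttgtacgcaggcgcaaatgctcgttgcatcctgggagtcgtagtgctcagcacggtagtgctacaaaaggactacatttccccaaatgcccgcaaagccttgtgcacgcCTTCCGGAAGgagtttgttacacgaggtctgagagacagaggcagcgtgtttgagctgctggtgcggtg
DDX21: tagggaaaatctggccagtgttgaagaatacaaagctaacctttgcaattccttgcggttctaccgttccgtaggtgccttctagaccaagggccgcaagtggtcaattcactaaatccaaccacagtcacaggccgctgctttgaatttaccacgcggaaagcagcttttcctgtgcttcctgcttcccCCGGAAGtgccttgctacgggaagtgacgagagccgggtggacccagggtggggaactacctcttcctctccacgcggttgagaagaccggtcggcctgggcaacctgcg
NIP7: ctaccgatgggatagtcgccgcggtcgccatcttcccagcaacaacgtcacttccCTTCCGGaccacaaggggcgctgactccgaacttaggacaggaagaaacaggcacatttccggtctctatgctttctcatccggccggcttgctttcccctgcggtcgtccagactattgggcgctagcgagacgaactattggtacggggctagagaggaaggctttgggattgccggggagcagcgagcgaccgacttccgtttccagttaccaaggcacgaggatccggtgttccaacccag
UBTF (chr17:44220833-44221132, minus strand) and NME1 (chr17:51153309-51153608, plus strand) were the least alike.
UBTF: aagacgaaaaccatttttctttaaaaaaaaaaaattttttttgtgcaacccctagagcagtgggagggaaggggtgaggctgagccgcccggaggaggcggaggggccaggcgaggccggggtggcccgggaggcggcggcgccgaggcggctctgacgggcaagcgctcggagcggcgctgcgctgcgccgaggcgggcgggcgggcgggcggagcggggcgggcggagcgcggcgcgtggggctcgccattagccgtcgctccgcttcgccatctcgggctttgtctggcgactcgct
NME1: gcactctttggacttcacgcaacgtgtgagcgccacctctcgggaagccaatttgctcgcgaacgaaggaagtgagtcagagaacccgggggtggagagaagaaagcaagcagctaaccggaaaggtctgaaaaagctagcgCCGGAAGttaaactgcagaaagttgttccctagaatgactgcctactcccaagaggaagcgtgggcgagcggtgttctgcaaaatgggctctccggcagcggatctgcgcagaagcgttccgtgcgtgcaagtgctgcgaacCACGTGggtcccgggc
UTP4 (chr16:69132399-69132698, plus strand), BYSL (chr6:41921249-41921548, plus strand) and NOP14 (chr4:2963357-2963656, minus strand) hold an E-box close to the start, chosen for display after the search.
UTP4: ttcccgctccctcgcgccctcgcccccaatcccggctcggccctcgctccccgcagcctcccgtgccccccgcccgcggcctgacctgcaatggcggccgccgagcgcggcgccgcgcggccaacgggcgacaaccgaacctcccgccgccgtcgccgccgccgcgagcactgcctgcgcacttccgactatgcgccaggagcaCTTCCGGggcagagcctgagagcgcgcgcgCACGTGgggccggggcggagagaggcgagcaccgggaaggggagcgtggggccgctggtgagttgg
BYSL: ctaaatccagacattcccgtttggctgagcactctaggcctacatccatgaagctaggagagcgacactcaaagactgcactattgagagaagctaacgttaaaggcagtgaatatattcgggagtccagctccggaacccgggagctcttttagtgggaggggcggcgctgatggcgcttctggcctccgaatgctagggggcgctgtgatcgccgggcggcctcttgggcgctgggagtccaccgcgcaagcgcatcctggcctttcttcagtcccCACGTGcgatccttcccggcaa
NOP14: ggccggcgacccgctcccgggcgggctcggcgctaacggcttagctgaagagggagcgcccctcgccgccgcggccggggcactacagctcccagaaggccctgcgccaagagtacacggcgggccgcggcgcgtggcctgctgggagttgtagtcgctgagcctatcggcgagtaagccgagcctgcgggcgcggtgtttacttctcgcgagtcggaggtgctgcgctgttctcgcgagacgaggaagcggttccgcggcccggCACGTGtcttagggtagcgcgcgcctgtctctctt

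The 3 most alike members hold no E-box in this window but each hold the ETS-type letters, in NOP16 as 1 palindrome that matches on both strands. UBTF holds neither motif. In NME1 the E-box begins 34 bases after the start, in UTP4 16 bases before it, in BYSL 28 bases after it and in NOP14 15 bases after it. Of the 32 tested members 26 had a promoter entry (MYC, NOP58, NOLC1, RRP12, BOP1 and RRS1 had none), and 11 of the 26 (42.3%) held an E-box against 7.26% of all 35116 promoters in the table. The 11 were UTP4, BYSL, NOP14, RRP9, FBL, MYBBP1A, NOP2, PES1, SRM, UTP20 and NME1, and in 9 of the 26 promoters (34.6%) an E-box lay wholly within 40 bases of the start, against 2.09% of all promoters. The ETS-type letters were found in 9 of 26 (34.6%), against 10.3% of all promoters. The list was drawn up partly as classic MYC targets, so the E-box share describes the list and is no test.

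None of the 32 members passed the test for a difference between siHBO1 and siCtrl. Limma called 0 of 32 at an adjusted p under 0.05, beside 0% of the 16692 rows in either direction. At an unadjusted p under 0.05 there were also 0 of 32 members, beside 3.82% of all rows. In 0 members did all siHBO1 arrays lie above all siCtrl arrays (5.48% of rows), and in 0 did they all lie below (4.58% of rows). Log2 changes ran from -0.20 for UTP20 to 0.38 for SRM with a median of 0.04, against 0.00 over all rows. The sign was positive in 20 members and negative in 12, and 14 were positive when arrays were scaled by their median instead of by quantiles. Median scaling moved the median over all rows to -0.05, and that of the members was then -0.03. In bulk RNA, a change in the share of cells that use a gene and a change per cell cannot be told apart.

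The intervals say how large a change these arrays could have hidden. The 95% interval lay within 2-fold of no change for 30 of the 32 members and within 1.5-fold for 12, those with the tightest values such as DKC1 (-0.23 to 0.16), NCL (-0.31 to 0.19) and BOP1 (-0.28 to 0.25). MYC had the widest interval, -0.91 to 1.31, and that of UTP20 also reached past 2-fold lower. The interval reached a median of 0.53 log2 to either side of the change over members, against 0.45 over all rows.

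**Figure D1:**
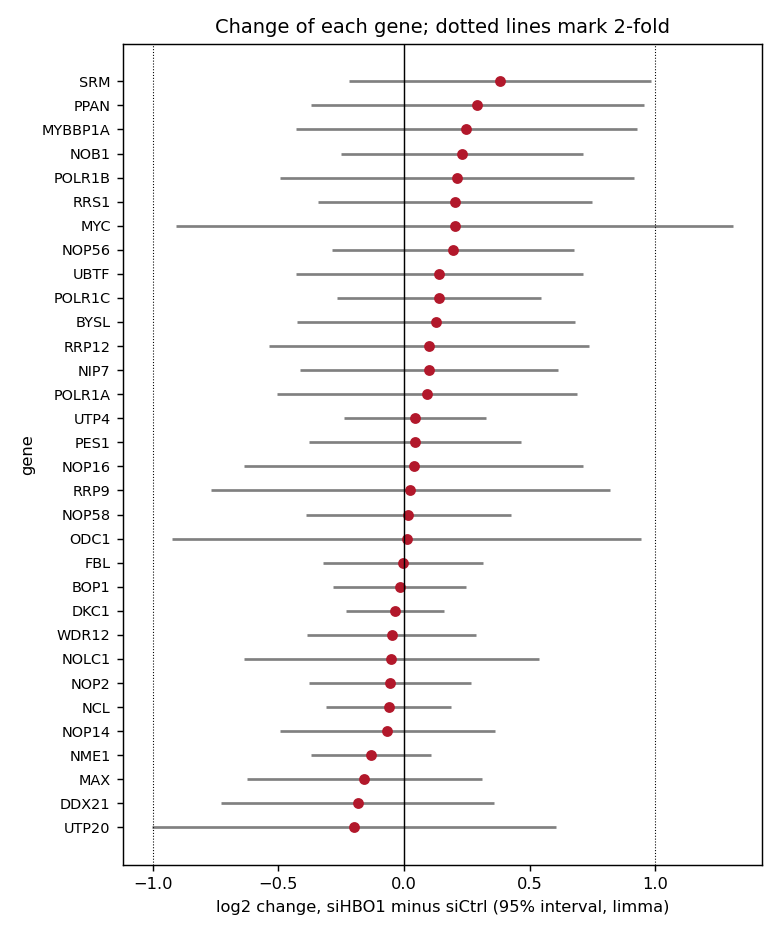
Log2 change of each of the 32 members (horizontal axis, siHBO1 minus siCtrl) with its 95% interval from limma on all rows, dotted lines at 2-fold. Every interval crosses 0, and those of MYC and UTP20 reach past the dotted 2-fold lines.

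MYC, the transcription factor at the head of the list, had log2 values of 11.78, 11.37 and 10.03 on siHBO1 1 to 3, against 11.68, 10.80 and 10.09 on siCtrl 1 to 3. Replicate 3 was lowest and replicate 1 highest in both groups, and the groups overlapped. The change was 0.20 (SE 0.49, limma adjusted p 0.999), while the arrays spanned 1.75 log2, or 3.35-fold. A second MYC probe read 10.74, 11.45 and 8.63 on siHBO1 1 to 3, against 11.35, 10.19 and 9.82 on siCtrl 1 to 3, with a change of -0.18. The probes share siHBO1 3 as the lowest array but differ in the sign of the change and in which siHBO1 array is highest. MAX, the partner that MYC needs to bind DNA, had 8.05, 7.75 and 7.74 on siHBO1 1 to 3, against 8.35, 7.81 and 7.85 on siCtrl 1 to 3. Its change was -0.16 (SE 0.21), its span was 0.61, and its 3 other probes gave 0.04, 0.21 and 0.07.

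Among the metabolic members, ODC1, the entry enzyme of polyamine synthesis, had the same order of arrays within each group as the first MYC probe. It read 12.46, 12.04 and 10.97 on siHBO1 1 to 3, against 12.57, 11.58 and 11.29 on siCtrl 1 to 3. The group means differed by 0.01 (SE 0.41) beside a 3.03-fold span. SRM, which makes spermidine in the next step, had the smallest p of all members in the fit with 1 probe a gene. Its values were 9.94, 9.85 and 9.13 on siHBO1 1 to 3, against 9.48, 9.48 and 8.83 on siCtrl 1 to 3, a change of 0.38 (SE 0.26, limma adjusted p 0.999). The siHBO1 arrays 1 and 2 lay above all siCtrl arrays and siHBO1 3 below siCtrl 1 and 2. NME1, a nucleoside diphosphate kinase, had 13.68, 13.73 and 13.68 on siHBO1 1 to 3, against 13.98, 13.59 and 13.92 on siCtrl 1 to 3. Its bright probe gave -0.13 (SE 0.11), and 2 further probes gave -0.45 (SE 0.21) and -0.24 (SE 0.22), so its 3 probes shared a sign. In the limma fit of every probe, the probe at -0.45 had an unadjusted p of 0.061, below the 0.184 of SRM. Its adjusted p in that fit was 0.999. NME1 has a close copy, NME2, and a read-through transcript with it, so its value is uncertain.

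**Figure D2:**
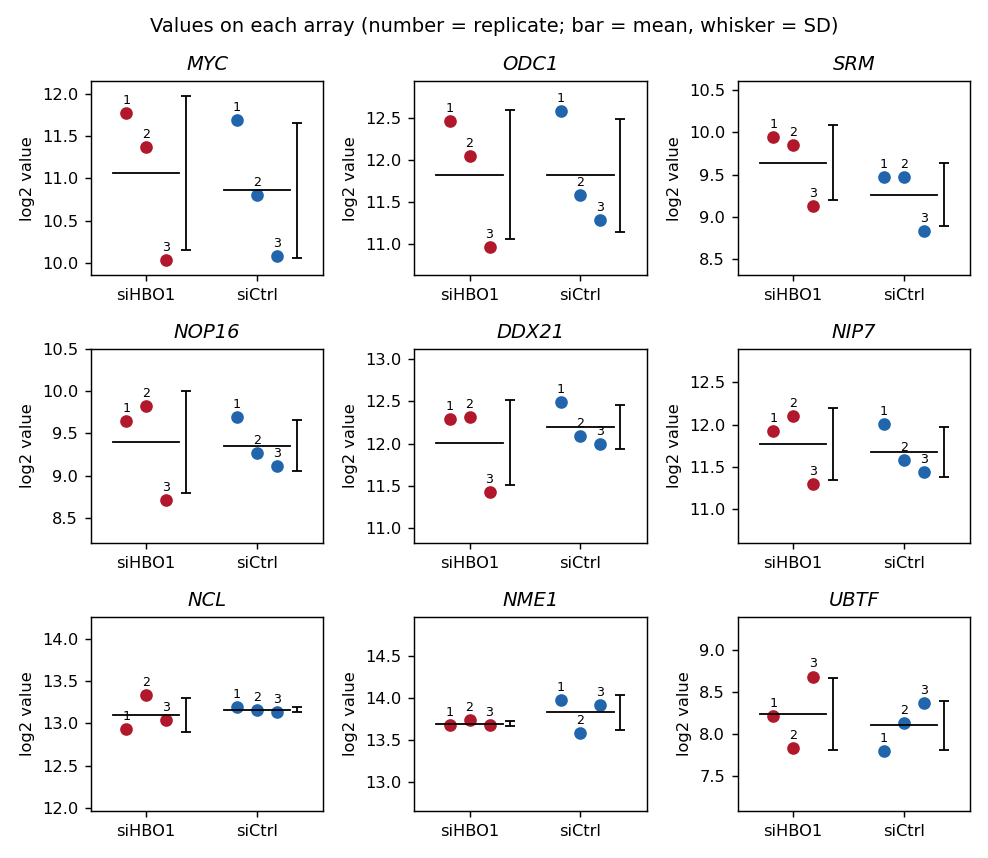
Log2 values (vertical axes, each 2.3 log2 high) of 9 members on siHBO1 and siCtrl arrays, with points numbered by replicate, bars at the mean and whiskers of 1 SD (n = 3). In MYC, ODC1, SRM, NOP16, DDX21 and NIP7 siHBO1 3 lies lowest of the siHBO1 arrays, in UBTF highest, and NCL and NME1 span 0.39 log2.

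RNA polymerase I genes split. POLR1A and POLR1B, the catalytic subunits, and POLR1C, which the enzyme shares with RNA polymerase III, had changes of 0.09, 0.21 and 0.14, none past the test. POLR1B read 7.21, 7.53 and 6.42 on siHBO1 1 to 3, against 7.05, 7.05 and 6.42 on siCtrl 1 to 3. UBTF, which loads the enzyme on rDNA, ran the other way from array to array. It read 8.22, 7.83 and 8.68 on siHBO1 1 to 3, against 7.80, 8.14 and 8.37 on siCtrl 1 to 3, and its change was 0.14 (SE 0.25). It was highest on siHBO1 3, where 26 other members had their lowest value. A dimmer UBTF probe gave a change of -0.27 and an r of -0.47 with the members' mean, and the deviations of the probes correlated at 0.522.

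Among snoRNP genes, the box C/D proteins NOP56, NOP58 and FBL and the H/ACA pseudouridine synthase DKC1 had changes of 0.20, 0.02, -0.00 and -0.04. NOP56 read 12.36, 12.85 and 11.97 on siHBO1 1 to 3, against 12.38, 12.26 and 11.95 on siCtrl 1 to 3. Its other probes gave -0.29 and -0.04, against 0.20. FBL, the methyltransferase of the box C/D particle, read 12.65, 12.84 and 12.29 on siHBO1 1 to 3, against 12.67, 12.58 and 12.55 on siCtrl 1 to 3. DKC1 was the steadiest member, with a span of 0.12 log2 over all 6 arrays, and even so its small deviations followed the others (r = 0.968). NOLC1, a snoRNP chaperone, and RRP9, which binds the U3 snoRNA, spanned 0.90 and 1.22 log2, and that of RRP9, a dim probe, was 0.42 without background correction.

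Of the abundant nucleolar proteins, the RNA helicase DDX21 read 12.29, 12.31 and 11.43 on siHBO1 1 to 3, against 12.50, 12.09 and 11.99 on siCtrl 1 to 3. The siHBO1 3 array was below all others, and the change of -0.18 (SE 0.24) did not pass the test. Nucleolin, the product of NCL, stood apart with 12.94, 13.33 and 13.04 on siHBO1 1 to 3, against 13.20, 13.16 and 13.13 on siCtrl 1 to 3. Its lowest array was siHBO1 1, and a second probe gave the same within-group order on the siHBO1 arrays.

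Small subunit factors included UTP4, UTP20 and NOP14, RRP12, BYSL, and NOB1, the nuclease that makes the mature end of the small subunit rRNA. UTP20 read 6.59, 7.23 and 5.65 on siHBO1 1 to 3, against 6.62, 6.64 and 6.81 on siCtrl 1 to 3, so that the siHBO1 arrays bracketed the siCtrl arrays. NOB1 read 8.92, 8.83 and 8.36 on siHBO1 1 to 3, against 8.58, 8.65 and 8.19 on siCtrl 1 to 3, a change of 0.23 (SE 0.21). The changes of UTP4, NOP14, RRP12 and BYSL lay between -0.07 and 0.13.

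Among the 8 large subunit factors measured, the median r over pairs was 0.917. By the same measure snoRNP members had 0.914, small subunit members 0.896 and MYC with MAX 0.750. Medians were lower, 0.402 for abundant nucleolar, 0.296 for metabolic and -0.073 for RNA polymerase I members, over only 3, 3 and 4 genes. In each of these roles 1 gene ran apart. Against the mean of all other members, NCL had an r of 0.371, NME1 of 0.228 and UBTF of -0.949. The remaining genes of these roles had an r from 0.873 (SRM) to 0.996 (DDX21). NOP16 read 9.65, 9.83 and 8.71 on siHBO1 1 to 3, against 9.69, 9.26 and 9.11 on siCtrl 1 to 3. NIP7 read 11.92, 12.11 and 11.30 on siHBO1 1 to 3, against 12.01, 11.58 and 11.43 on siCtrl 1 to 3. PPAN, whose locus also gives a read-through transcript, read 7.72, 7.99 and 6.96 on siHBO1 1 to 3, against 7.64, 7.12 and 7.03 on siCtrl 1 to 3. These share the order siHBO1 2, 1, 3 and siCtrl 1, 2, 3 from high to low, with siHBO1 3 the lowest of all. BOP1, PES1 and WDR12, which form one complex, had changes of -0.02, 0.04 and -0.05, and the rRNA methyltransferase NOP2 one of -0.06. RRS1, which helps bring in the small 5S particle, was at 0.20.

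With the group means taken out, the members moved together across arrays. A member's deviation is its log2 value minus the mean of its own group, which leaves 4 residual degrees of freedom over 6 arrays, and arrays are shared by all genes, so correlations of deviations are given as descriptions with no p. The median Pearson r over the 496 pairs of members was 0.861, against 0.004 over all pairs of named genes. Over lists described further on, it was 0.804 for inflammatory genes and 0.727 for genes of stress and the unfolded protein response. For other genes of these pathways it was 0.570 (RNA polymerase I), 0.527 (small subunit), 0.432 (large subunit), 0.273 (snoRNP assembly) and 0.210 (MYC targets). Of the member pairs 61.7% had an r over 0.8, against 7.88% of all pairs of named genes. Each member was also set against the mean of the other 31: 22 of 32 (68.8%) had an r over 0.9, against 5.78% of the 11885 other named genes set against the members' mean. NOP16 (0.998), DDX21 (0.996) and NIP7 (0.988) were highest. MAX (0.559), NCL (0.371), NME1 (0.228) and UBTF (-0.949) were lowest, and 2 further NME1 probes had 0.791 and 0.798 with the members' mean.

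Second probes gave a mixed check within genes: of 17 further probes, 11 had an r over 0.8 with the probe used and 6 did not. The 2 NOP16 probes correlated at 0.992, the 2 NOP14 probes at 0.967 and the 2 MYC probes at 0.895 in their deviations. The further probes of POLR1B and POLR1C correlated with the probe used at 0.902 and 0.861, and those of NOP56 at 0.932 and 0.889. The 6 that did not were 1 probe each of WDR12 (0.721), NOP2 (0.619), UBTF (0.522) and MAX (0.390) and both further probes of NME1 (0.358 and -0.024). With all kept probes of a gene averaged, the median r over member pairs was 0.891. With 1 probe a gene, the median of 0.861 became 0.675 to 0.924 when 1 array at a time was left out, the lowest being without siHBO1 3.

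**Figure D3:**
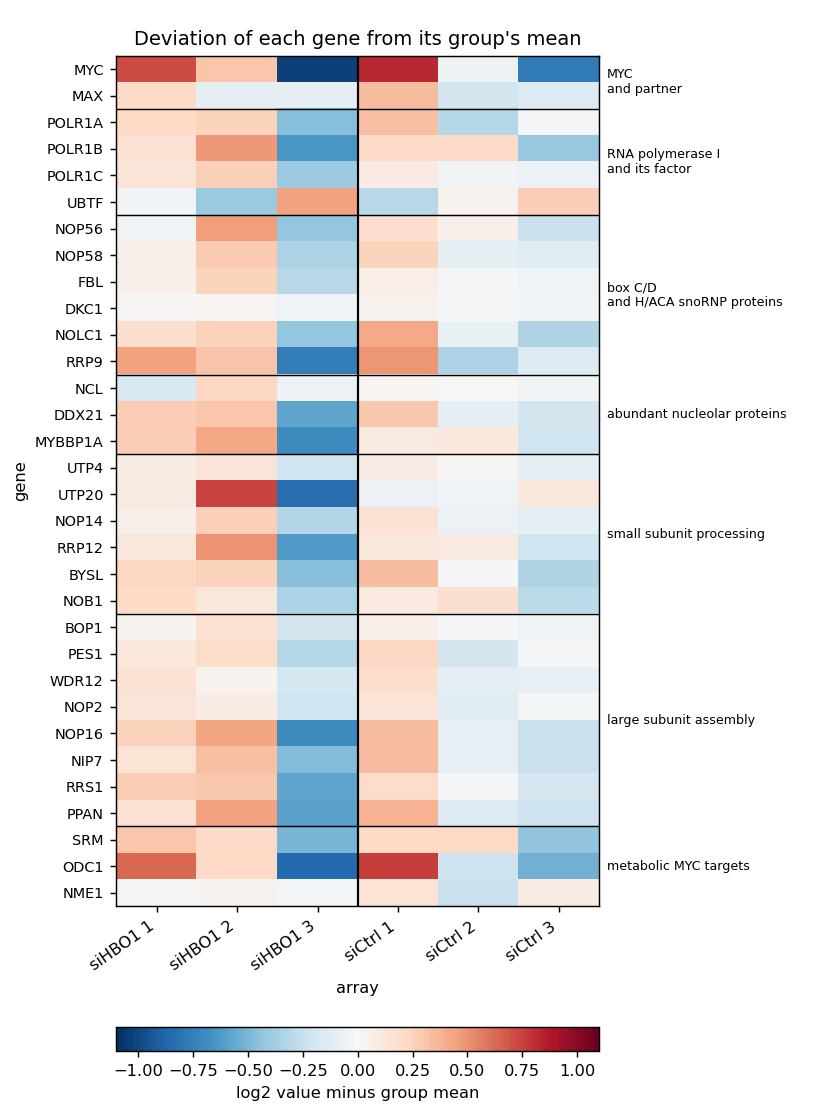
Deviation of each of the 32 members (rows, by role) from its group's mean on each array (columns), in log2, red above and blue below the mean. The siHBO1 3 column is blue in all members but UBTF, and the siCtrl 1 column red in all but UBTF and UTP20.

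**Figure D4:**
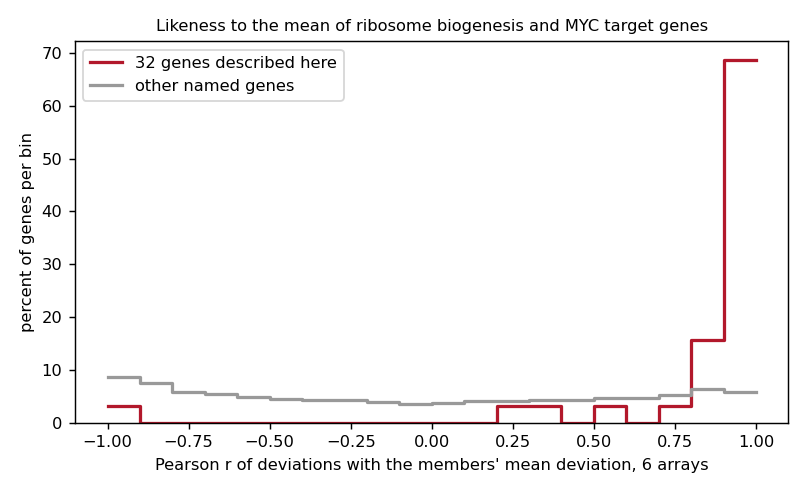
Share of genes (vertical axis, percent per bin of 0.1) by Pearson r of their deviations with the mean deviation of the members over 6 arrays (horizontal axis), a member being set against the other members. Of the 32 members 22 lie above 0.9, and the other named genes spread over the whole range.

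The same arrays were high and low for nearly all roles. The mean deviation of the 32 members was 0.17, 0.24 and -0.42 log2 on siHBO1 1 to 3 and 0.22, -0.05 and -0.17 on siCtrl 1 to 3. On siHBO1 3 the deviation was negative in 31 of 32 members, and on siCtrl 1 positive in 30 of 32. The lowest of the 6 values was on siHBO1 3 for 26 of 32 members (81.2%), against 19.4% of the other named genes. The highest of the siCtrl values was on siCtrl 1 for 28 of 32 (87.5%), beside 4280 of the 11885 other named genes. Of the siHBO1 arrays, the highest was array 2 for 23 members (71.9%), against 30.8% of the other named genes. It was array 1 for 8 members (25%), against 31.1% of the other named genes. These 8 were MYC, ODC1, SRM, MAX, NOB1, NOP2, RRP9 and WDR12. By role, mean deviations on siHBO1 3 were -0.27 for RNA polymerase I genes, -0.38 for snoRNP genes, -0.47 for small subunit genes, -0.41 for large subunit genes and -0.46 for the metabolic genes.

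The median change of the members followed which arrays were used. It was 0.27 without siHBO1 3, with 27 of 32 members positive, and 0.16 without siCtrl 1, with 26 positive. It was -0.07 without siHBO1 2, with 9 positive, and -0.04 without siCtrl 3, with 11 positive. Without siHBO1 1 or siCtrl 2 it was -0.02, with 14 positive in each case. Without siHBO1 3, 5 of 32 members had an unadjusted p under 0.05, beside 5.01% of all rows in that fit, and 0 passed an adjusted p under 0.05 in limma. On siHBO1 3, 31 of 32 members lay below their group's mean, so leaving it out raises their siHBO1 mean. Without siCtrl 2 the unadjusted count was 1 of 32 members, beside 431 of 16692 rows. Without any of the other arrays it was 0 of 32, beside 297 to 1499 of 16692 rows.

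Further genes of these pathways, were taken from lists that do not overlap the members. The 41 other small subunit genes measured deviated by 0.06, 0.18 and -0.25 on siHBO1 1 to 3 and by 0.11, 0.01 and -0.12 on siCtrl 1 to 3. The 49 other large subunit genes deviated by -0.23 on siHBO1 3 and by 0.05 on siCtrl 1, and the 14 other RNA polymerase I genes by -0.25 and 0.19. Their median r with the members' mean was 0.731, 0.717 and 0.755, and 9, 11 and 4 of them had an r over 0.9. In all 3 lists siHBO1 3 and siCtrl 3 had the lowest mean of their group, as in the members. The 15 other snoRNP assembly genes had a median r of 0.512 and the 43 other MYC targets one of 0.526. The 19 genes of the MYC network, such as the MXD and MLX families, had a median r of 0.344, and their mean deviation lay between -0.04 and 0.04 log2 on the 6 arrays. That mean joins genes of opposite course, 11 with an r above 0 and 8 below. MXD1 (0.843) and MXI1 (0.880) went with the members, while MXD4 (-0.982), MXD3 (-0.880) and MNT (-0.863), which like them pair with MAX, went against them.

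In limma 0 genes of each of these lists were called. At an unadjusted p under 0.05 there were 1 RNA polymerase I, 1 small subunit, 2 large subunit, 0 snoRNP assembly and 2 MYC network genes, 3 other MYC targets and 1 gene of ribosomal stress and p53, beside 3.82% of all rows. Of the small subunit genes 27 were positive and 14 negative (median 0.04), with NOC4L at 0.50 (SE 0.19) and WDR46 at 0.25. Of the large subunit genes 29 were positive and 20 negative (median 0.05), with GRWD1, a chaperone of a ribosomal protein, at 0.38 (SE 0.14) and NOL9 at 0.74, a dim probe detected on 1 of 3 siCtrl arrays. Among 14 RNA polymerase I genes 9 were negative (median -0.12), with the topoisomerase TOP1 at -0.78 (SE 0.27) and TAF1A at -0.40. The snoRNP assembly genes had a median of 0.02, with PIH1D1 at 0.37 and NHP2 at 0.17. In the MYC network (median -0.01) ZBTB17, a MYC-binding zinc finger protein, was at 0.38 and SKP2 at -0.26. Among other MYC targets (median -0.01), the purine enzyme PAICS was at -0.32 (SE 0.11) and RANBP1 at -0.35. Of 11 ribosomal stress and p53 target genes 10 were positive (median 0.18), with RPL11, which binds MDM2 when ribosome assembly is disturbed, at 0.18 (SE 0.07) and ZMAT3 at 0.35.

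Other programmes deviated on the same arrays. The 15 inflammatory genes measured deviated by 0.67, 0.16 and -0.82 log2 on siHBO1 1 to 3 and by 0.91, -0.53 and -0.38 on siCtrl 1 to 3, with a median r of 0.877 with the members' mean. The 17 genes of stress and the unfolded protein response deviated by 0.44, 0.05 and -0.49 on siHBO1 1 to 3 and by 0.53, -0.16 and -0.37 on siCtrl 1 to 3, with a median r of 0.865. Members differed from both lists on siHBO1 2, where the members' mean was highest and that of either list in the middle. The median changes of these lists were 0.20 (TNF 0.61, detected on 1 of 3 siCtrl arrays, and TNFAIP2 0.30) and 0.15 (HSPA1A -0.35, DNAJB1 0.32), with 0 called in limma and 0 inflammatory and 2 stress genes at an unadjusted p under 0.05, beside 3.82% of all rows. The mean deviation of the 14 reference genes lay within 0.04 log2 of 0 on the 6 arrays, while single genes deviated by up to -0.42 and 0.38, both in TFRC. TFRC is also on the list of other MYC targets, and its r with the members' mean was 0.890. The median r of the reference genes with the members' mean was -0.53, with 10 genes below 0 and 4 above. Their median change was 0.04 (B2M -0.17, GUSB 0.18).

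Of 10 fibroblast and endothelial markers 2 passed the filter, COL1A1 and COL1A2, and both were detected on all 6 arrays. Whether their signal comes from the line itself or from other cells was not tested. COL1A1, a collagen gene, read 8.71, 9.01 and 10.89 on siHBO1 1 to 3, against 7.85, 9.90 and 9.81 on siCtrl 1 to 3. COL1A2 read 6.63, 7.14 and 9.39 on siHBO1 1 to 3, against 6.86, 7.999 and 7.70 on siCtrl 1 to 3. Both were highest where the members were lowest, and COL3A1 was detected on 1 of 6 arrays. The summed linear level of the 10 ranged from 752 to 2963 on siHBO1 and from 581 to 1457 on siCtrl arrays. The sum over 8 leukocyte markers with a probe, 4 of them past the filter, ranged from 1893 to 2270 on siHBO1 and from 1951 to 2732 on siCtrl arrays. CD14 differed by 0.38 and CD52 by 0.32, neither past the test, and among the line's own markers PAX8 differed by 0.27 and KRT8 by 0.24. The sum over the 13 epithelial and ovarian carcinoma line markers, which include VIM and CDH2, ranged from 36225 to 39519 on siHBO1 and from 34991 to 38519 on siCtrl arrays. A linear sum weighs bright markers most, and VIM was the brightest on every array, with 13.99, 13.97 and 13.90 on siHBO1 1 to 3. The sum therefore does not show the course of dimmer markers. KRT7 read 10.57, 8.40 and 8.23 on siHBO1 1 to 3, against 9.87, 8.63 and 7.90 on siCtrl 1 to 3. The part of these markers in the members' spread was not tested, nor was that of mean signal, which was highest on siHBO1 3.

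**Figure D5:**
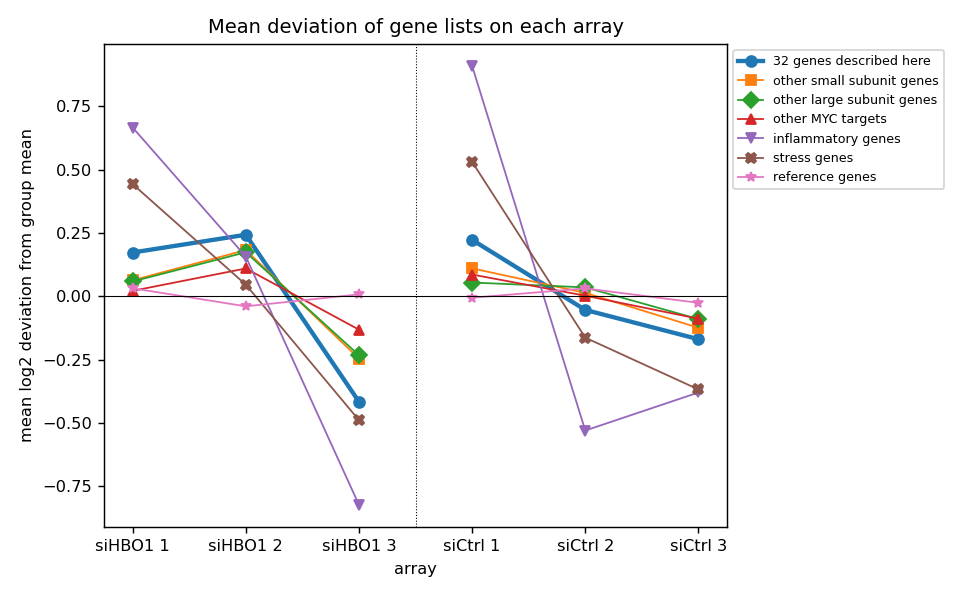
Mean log2 deviation from the group's mean (vertical axis) of the 32 members and of 6 other gene lists on each array (horizontal axis), lines joining arrays of 1 group. The members lie at -0.42 on siHBO1 3 and at 0.22 on siCtrl 1, inflammatory genes at -0.82 and 0.91, and the mean of the reference genes within 0.04 of 0.

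Outside the lists, 687 of 11885 other named genes (5.78%) had an r over 0.9 with the members' mean and 1031 (8.67%) one under -0.9. Among the 2207 genes that varied at least as much as the median member, the 10 most alike over the 6 arrays were MT1F, TIAM1, OTUD6B, DAW1, GADD45A, ZFAND2A, DNER, ZNF185, PROSER2 and PEAR1, with r from 0.992 to 0.998. GADD45A, a growth arrest and DNA damage gene, read 12.24, 12.37 and 9.99 on siHBO1 1 to 3, against 12.51, 11.24 and 10.70 on siCtrl 1 to 3. The metallothionein MT1F read 8.15, 8.23 and 7.22 on siHBO1 1 to 3, against 8.05, 7.59 and 7.35 on siCtrl 1 to 3. The siHBO1 3 value was the lowest in both, and their changes of 0.05 (SE 0.64) and 0.20 (SE 0.30) did not pass the test.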

How the data were processed

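Biotin-labelled cRNA was prepared for Illumina arrays, per the labels' protocols. Per the file headers, the deposited intensity is a probe's average signal, on a linear scale by its values, beside a deposited detection p-value. The background was inferred by neqc from these p-values, taking them as ranks among the array's negative controls. By its values, the authors' processed table holds log2 data. Per the submitters' processing notes, GenomeStudio and lumi were used, and the sources used here do not give how the table was normalized.

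Intensities were corrected and quantile-normalized with neqc (offset 16) of limma 3.58.1 in R 4.3.3 (statmod 1.5.0), which returns log2 values. A probe stayed in (20744 did) when at least 3 of 6 arrays had its detection p below 0.05. The probe with the highest mean stood for a gene, and a second fit used every kept probe. Of 30110 probes with 1 symbol in the platform table, 0 symbols changed when matched by gene ID to the reference gene table. The comparison used lmFit, then eBayes with a trend on intensity, with two-sided p-values and Benjamini-Hochberg adjustment over all 16692 rows at 0.05. The scripts were tested on simulated data. Precision is limited by having 3 arrays a group.

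Members, lists and rules were chosen with earlier results of these data known. Shown array by array are MYC, MAX, the 4 members per direction with the smallest p, the 3 most and 3 least like the other members, and the 3 with the brightest probes; ODC1, POLR1B, GADD45A, MT1F and the marker genes were added after their values were seen, as were the 3 promoters shown for their E-box. For each other list the 2 genes with the smallest p are named, and TFRC, MXD1, MXI1, MXD3, MXD4 and MNT were named after their values were seen. Alternatives covered background correction, scaling, the authors' values, the filter on dim probes, every probe, the trend, array weights, a replicate block and leaving out each array.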

Additional observations from a re-analysis of the deposited data

How the results depend on the processing

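The count of 0 members called held in all 16 alternatives, with 0.601 the smallest limma adjusted p of any member. Over all rows 0 were called in 14 alternatives, and 4 were called with array weights and 4 with the replicate block, none of them a member. The labels name nothing that same-numbered arrays share, so the numbers were not taken to pair the arrays. Even so, r between the siHBO1 and siCtrl deviations was 0.571 for number 1 and 0.483 for number 3, beside 0.0224 for number 2. Whether a number marks a shared step was not tested. With the block, the members' mean deviation was -0.02, 0.15 and -0.12 on siHBO1 1 to 3, against 0.17, 0.24 and -0.42 without it. Part of the members' spread between arrays thus went with the replicate number. With the block, 1 of 32 members had an unadjusted p under 0.05, beside 7.11% of all rows. The median change of the members ran from -0.07 to 0.27 with an array left out, was 0.14 with array weights and -0.03 with median scaling. Between single arrays of a group, the members' mean deviation had a standard deviation of 0.29. That is the spread of 1 array and not the error of a difference of group means. The median r over member pairs was 0.861 as reported, ran from 0.675 to 0.924 with an array left out, and was 0.789 with median scaling, 0.858 without background correction and 0.915 with the block, where 2 residual degrees of freedom remain. KAT7 had a negative change in the 15 alternatives that gave it a value (-1.35 to -0.37). Signs turned for MAX, to 0.00 (0.00411) with array weights and 0.017 without siCtrl 1, and only with an array left out for MYC (-0.18 to 0.72), NOP56 (-0.034 to 0.41), DDX21 (-0.34 to 0.10) and UTP20 (-0.57 to 0.22). MAX ran from -0.26 to 0.017 with an array left out. SRM, PPAN, NOB1 and NME1 had the reported sign in all 16. A slide block was not run, since no slides are named. Dim probes limit spans: without background correction POLR1A spanned 0.23 against 0.72 log2, and MYBBP1A 0.36 against 1.12.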
